A study of Mus musculus with 2 samples.

Results

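Small nucleolar RNA (snoRNA) host genes are genes whose introns carry snoRNAs. The rows of 10 of them, Gas5, Snhg1, Snhg3, Snhg5, Snhg6, Snhg8, Snhg11, Snhg12, Snhg15 and Snhg20, were taken by name from a table of 48550 rows. Allele-specific nuclear RNA had been sequenced in 2 libraries of the mouse line F121-6. These are female embryonic stem (ES) cells of a hybrid with 129 and castaneus (cas) alleles. The cells grew with LIF and serum on mitomycin-C-inactivated mouse embryonic fibroblasts (MEFs), with no other treatment in the labels. In each library the reads of the 129 allele were compared with those of the cas allele in the same RNA. Both libraries come from 1 cell line. Nothing in the labels says that they are separate cultures, so p-values measure only the spread between them, which may be technical.

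snoRNAs guide chemical changes of other RNAs. Those with C and D boxes guide ribose methylation, those with an H and an ACA box guide the conversion of uridine to pseudouridine, and most act on ribosomal RNA. Small Cajal body RNAs (scaRNAs) do the same for spliceosomal RNAs. Vertebrate snoRNAs are mostly cut out of introns while the host transcript is spliced, so that host and snoRNA share a promoter. The spliced remainder of many noncoding hosts is a known target of nonsense-mediated decay. Many hosts start with a run of pyrimidines, the terminal oligopyrimidine (TOP) element that ribosomal protein genes also have.

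Small RNAs inside the 5 host genes that differed between the alleles are shown first, because they are what these genes are known to produce. They are the reference sequence of GENCODE mouse release M21 (mm10), not that of 129 or cas. In the C/D sequences the capitals mark the C box (TGATGA, within 15 bases of the 5′ end) and the D box (CTGA, within 15 bases of the 3′ end). Elsewhere they mark an ACA placed 3 bases from the 3′ end or, for the pair in Snhg11, at the last 3 bases. For Gas5 on chromosome 1 only some of its 10 annotated small RNAs are shown, and others, such as Snord78, lack the C box as searched. Those shown are Snord47 (chr1:161038082-161038158, plus strand) and Snord80 (chr1:161037601-161037681, plus strand).
Snord47: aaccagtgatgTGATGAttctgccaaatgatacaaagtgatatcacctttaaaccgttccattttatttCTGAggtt
Snord80: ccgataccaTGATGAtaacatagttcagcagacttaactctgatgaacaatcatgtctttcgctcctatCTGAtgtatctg
Snhg8 carries Snora24 (chr3:123507937-123508066, minus strand) and Snhg15 carries Snora9 (chr11:6528033-6528165, minus strand).
Snora24: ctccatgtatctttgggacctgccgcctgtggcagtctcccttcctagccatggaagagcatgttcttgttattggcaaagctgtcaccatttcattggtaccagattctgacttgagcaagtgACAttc
Snora9: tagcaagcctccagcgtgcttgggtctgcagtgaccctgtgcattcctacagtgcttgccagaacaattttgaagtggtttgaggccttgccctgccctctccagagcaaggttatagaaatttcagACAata
Snhg11 carries a pair annotated only as snoRNAs, Gm25187 (chr2:158378222-158378354, plus strand) and Gm25129 (chr2:158379534-158379666, plus strand).
Gm25187: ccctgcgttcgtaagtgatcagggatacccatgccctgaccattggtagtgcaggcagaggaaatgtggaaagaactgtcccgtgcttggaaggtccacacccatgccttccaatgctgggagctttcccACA
Gm25129: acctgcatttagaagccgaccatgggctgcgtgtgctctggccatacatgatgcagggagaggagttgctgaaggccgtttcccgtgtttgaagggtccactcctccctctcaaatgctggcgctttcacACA
Snhg20 carries the scaRNA Gm26083 (chr11:117077243-117077435, plus strand), and both mature microRNAs of Mir6516 lie within it (chr11:117077370-117077391 and chr11:117077412-117077433). The microRNAs are given from RefSeq (GRCm38.p6), with the seed, bases 2 to 8, in capitals.
Gm26083: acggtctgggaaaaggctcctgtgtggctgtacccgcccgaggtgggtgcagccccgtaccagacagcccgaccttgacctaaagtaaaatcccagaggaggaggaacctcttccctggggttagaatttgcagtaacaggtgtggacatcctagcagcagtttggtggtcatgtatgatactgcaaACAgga
mmu-miR-6516-5p: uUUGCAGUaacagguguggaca
mmu-miR-6516-3p: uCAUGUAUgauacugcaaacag

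In all, 34 small RNAs were annotated inside the 10 host genes on their own strand, 10 of them in Gas5, 8 in Snhg1 and 5 in Snhg12. Snord80 in Gas5 and Snora16a in Snhg12 are each annotated under a pair of overlapping IDs, and both IDs are counted. Snhg3, Snhg5, Snhg11 and Snhg20 had 2 each, and Snhg6, Snhg8 and Snhg15 had 1 each. Of the 33 that were snoRNAs or scaRNAs, 17 (51.5%) had both the C and the D box by the search above and 8 (24.2%) had the ACA 3 bases from the end without that pair of boxes. The same search found the boxes in 20.1% and the ACA without them in 19.1% of all 1558 annotated snoRNA and scaRNA transcripts. Gas5, Snhg1, Snhg5 and Snhg6 held sequences of the C/D kind and none of the ACA kind, while Snhg12 held both. Mir5117 in Gas5, annotated as a snoRNA, had the ACA as well as both boxes and was counted as C/D. Some sequences counted as neither, Snord22 in Snhg1 and Snord78 in Gas5 among them, had the D box and not the C box as searched.

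The rows of these 34 small RNAs were looked up by name and chromosome, and none had a read from either allele in either library. The paired IDs of Snord80 share a name, as do those of Snora16a, so the same row was read for both IDs of a pair. Across the table, of 5179 rows that lie within another gene on the same strand, 48 (0.927%) had a read, against 56.9% of 41231 other matched rows. For snoRNA and scaRNA rows the shares were 11 of 652 (1.69%) when nested and 83 of 876 (9.47%) when not. How the authors counted reads in overlapping genes is not known here. The values below are therefore those of the host rows, and say nothing of the levels of the small RNAs.

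Reads are given as whole reads recovered from the deposited RPKM, and only reads that could be assigned to an allele are counted. The libraries held 28523744 and 31402765 such reads, 53.6% and 54.2% of them from 129. The median tested gene had 55.3% of its reads from 129 in library 1 and 56.0% in library 2. A log2(129/cas) ratio is therefore relative to the typical gene, after scaling each allele column by trimmed means. A positive ratio means higher from 129, and a gene with even reads has a ratio below 0. How many reads a gene can give depends on its SNPs between the strains, so reads of different genes do not rank their levels. The deposited lengths of the 10 rows, from 106 to 41937 bp, are in no case within 2 bp of the annotated spans of 853 to 10508 bp, so their RPKM cannot be compared between genes either.

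The host genes went both ways. Of the 9 with 20 or more allele reads in each library, 3 (Snhg20, Snhg8 and Snhg15) were higher from 129, 2 (Gas5 and Snhg11) were higher from cas, and 4 (Snhg5, Snhg12, Snhg1 and Snhg6) were not called at an adjusted p under 0.05 in limma. Over all 15509 tested genes 43.9% were called, 21.9% higher from 129 and 22.0% higher from cas. With 5 of 9 called, the host genes were near that background, so the count is not a result about them as a group. Their median log2 ratio was 0.04 and the median size 0.49, against -0.0026 and 0.40 over all tested genes. The split moved with the scaling. Under 1 shared library size for both alleles, which puts the median of all genes at 0.32, 5 host genes were called toward 129 and 1 toward cas. Under that scaling 51.6% of all tested genes were called, and 41.9% were called toward 129. With column totals the host genes split into 4 toward 129 and 2 toward cas. Of all 15509 tested genes, 4186 were then called toward 129 and 2581 toward cas. The host genes split in the same way in an exact binomial test within each library, which called 45.3% of all tested genes, 27.7% toward 129.

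**Figure D1:**
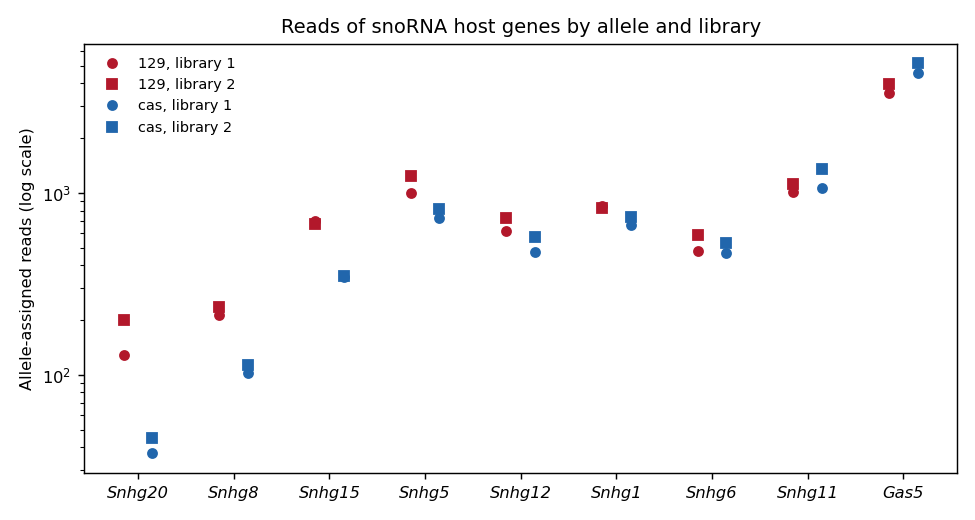
Allele-assigned reads (log axis) of the 9 tested host genes, with 129 in red on the left and cas in blue on the right of each gene, circles for library 1 and squares for library 2. Gas5 had the most reads and Snhg20 the fewest; in Gas5 both cas values lie above both 129 values.

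Gas5 (chromosome 1, 161034422 to 161038539, plus strand, ENSMUSG00000053332.13), first found as a transcript that accumulates in growth-arrested cells, gave more reads from cas. It had 3539 and 3959 reads from 129 in libraries 1 and 2, against 4544 and 5143 from cas. Both cas values were above both 129 values. The 129 share was 43.8% in library 1 (exact 95% binomial interval 42.7 to 44.9) and 43.5% in library 2 (42.5 to 44.5); these intervals and those below cover counting error only. The log2 ratio was -0.70 (SE 0.06, adjusted p = 4.8e-30 in limma), 1.62-fold higher from cas. It stayed past the threshold with 1 shared library size, where it was -0.37.

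Zbtb37, a zinc finger gene on the opposite strand, has its start 427 bp from the GENCODE start of Gas5 and overlaps 428 bp (10.4%) of the Gas5 span. The RefSeq start of Gas5 printed below, within chr1:161035151-161035180, is a different one and lies past this overlap. A further RefSeq start, within chr1:161034586-161034615 and not printed, lies inside it. Zbtb37 had 201 and 219 reads from 129, with 303 and 380 from cas, and its log2 ratio was -1.02 (SE 0.18, adjusted p = 1.5e-07 in limma). Both genes were thus higher from cas. No source states whether the counting used strand, so reads in the shared stretch cannot be assigned to one of the genes.

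Snhg11 (chromosome 2, 158375638 to 158386145, plus strand), a host gene known for its high level in neurons and annotated as protein-coding in this release, had 1016 and 1118 reads from 129, with 1060 and 1349 from cas. Reads from cas were higher within each library, but the alleles overlapped across libraries. The 129 share was 48.9% (46.8 to 51.1) and 45.3% (43.3 to 47.3), a log2 ratio of -0.49 (SE 0.10, adjusted p = 1.4e-06 in limma), or 1.41-fold higher from cas. The call held with column totals (-0.39) and in the exact binomial test (-0.40). Under 1 shared library size it was lost: the ratio was -0.17 and the adjusted p in limma was 0.14.

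Snhg20 (chromosome 11, 117076008 to 117078955, plus strand), the host of the scaRNA and of Mir6516 shown above, had the strongest skew of the 9. It gave 128 and 200 reads from 129, with 37 and 45 from cas. Every 129 value was above every cas value. That was also so for Snhg8 and Snhg15 below, but equally for the uncalled Snhg5, Snhg12 and Snhg1. Reads that do not overlap thus do not mark a call. How many of all tested genes have such reads was not counted. The 129 share was 77.6% (70.4 to 83.7) in library 1 and 81.6% (76.2 to 86.3) in library 2. The log2 ratio was 1.61 (SE 0.33, adjusted p = 5.4e-06 in limma), 3.06-fold higher from 129, and 89.3% of tested genes had a smaller ratio in either direction. Snhg20 was also the tested host gene with the fewest reads, and its ratios in the libraries, 1.46 and 1.76, were the farthest apart. When a change beyond 1.5-fold was required, Snhg20 was the 1 host gene called, against 12.8% of all tested genes, 7.66% toward 129.

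Snhg8 (chromosome 3, 123507552 to 123508404, minus strand), the host of Snora24, had 213 and 235 reads from 129, with 102 and 113 from cas. The alleles did not overlap. Its 129 share was 67.6% (62.1 to 72.8) and 67.5% (62.3 to 72.4). The log2 ratio was 0.72 (SE 0.24, adjusted p = 0.0071 in limma). Without pairing the alleles by library (no replicate block) the adjusted p in limma was 0.056, and the call was lost.

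Snhg15 (chromosome 11, 6525591 to 6528760, minus strand), the host of Snora9, had 700 and 671 reads from 129, with 343 and 349 from cas. The alleles were again apart in both libraries. The 129 share was 67.1% (64.2 to 70.0) and 65.8% (62.8 to 68.7), and its ratio was 0.66 on the log2 scale (SE 0.14, adjusted p = 8.7e-06 in limma), or 1.57-fold higher from 129.

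**Figure D2:**
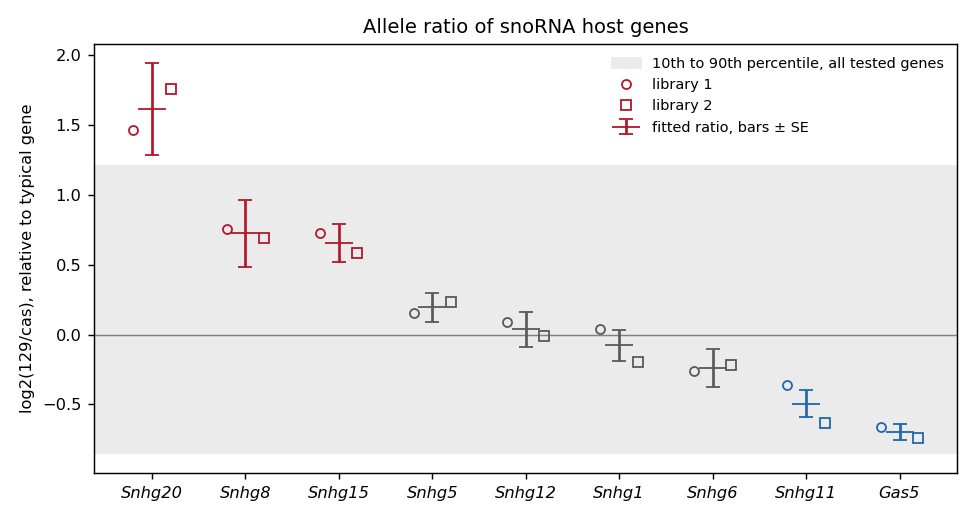
log2(129/cas) of the 9 tested host genes, relative to the typical gene. The short line is the fitted ratio with bars of 1 SE, circle and square are libraries 1 and 2, the colour gives the call (red 129, blue cas, grey none), and the grey band holds the 10th to 90th percentile of all tested genes. The ratio of Snhg20 alone lies outside the band.

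The 4 host genes without a call all held sequences of the C/D kind by the search, and Snhg12 held some of the ACA kind as well. The called Gas5 also held 8 of the C/D kind, so this does not set the uncalled genes apart. Snhg5 (chromosome 9), the host of Snord50a and Snord50b, had 1000 and 1235 reads from 129, with 730 and 819 from cas. Its 129 share of 59.0% ± 1.64 (SD, n = 2) was above that of the typical gene by a log2 ratio of 0.19 (SE 0.10, adjusted p = 0.12 in limma), with a 95% interval of -0.0086 to 0.40. With column totals it was 0.30 and with 1 shared library size 0.52, both called. The call on Snhg5 thus turned on the scaling.

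By the search, Snhg12 (chromosome 4) held 3 sequences of the ACA kind and 1 of the C/D kind. Both overlapping IDs of Snora16a are among the 3. The gene had 616 and 730 reads from 129, with 471 and 573 from cas. Its log2 ratio was 0.04 (95% interval -0.21 to 0.28). With 1 shared library size it was 0.37, with an adjusted p of 0.0095 in limma. Snhg1 (chromosome 19), whose 8 snoRNAs make it the second richest of the hosts, had 842 and 822 reads from 129, with 665 and 733 from cas. The ratio was -0.08 (-0.30 to 0.14), with 0.04 in library 1 and -0.19 in library 2, and it turned positive with either other scaling.

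Snhg6 (chromosome 1), the host of Snord87, had 482 and 586 reads from 129, with 470 and 531 from cas, values that overlap. Its ratio was -0.24 (-0.50 to 0.02), and it turned positive with 1 shared library size (0.09). A stretch of 127 bp (5.88% of its span) is shared with Mcmdc2, a gene of the MCM family on the opposite strand, which had 287 and 340 reads from 129, with 614 and 711 from cas. The part of these shared bases in the reads of Snhg6 was not tested. The intervals of these 4 genes do not show equal alleles.

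Snhg3 (chromosome 4, 132348014 to 132353686, minus strand), the host of Snora73a and Snora73b, had too few reads to test. It had 2 and 0 reads from 129 in libraries 1 and 2, against 0 and 7 from cas. The reads thus came from 129 in one library and from cas in the other, and no share or fold is drawn from them. Rcc1, which encodes the exchange factor of the GTPase Ran, covers 5592 bp (98.6%) of the Snhg3 span on the same strand, and their starts are 81 bp apart. Rcc1 had 720 and 721 reads from 129, with 381 and 361 from cas, a log2 ratio of 0.63 (SE 0.13, adjusted p = 1.3e-05 in limma). Whether some of these are reads of Snhg3 cannot be told from the table.

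The exact 95% intervals of the 129 share in libraries 1 and 2 overlapped for all 9. The log2 ratios of the libraries differed by 0.04 (Snhg6) to 0.30 (Snhg20). The direction was the same in both for 7 of the 9, among them all 5 called genes, while Snhg1 and Snhg12 changed sign close to 0. These calls rest on the same libraries, so this is a description.

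Beside each host gene the tested protein-coding gene with the nearest start was read off, as a description of the surroundings. Snhg20 and its neighbour Sec14l1, a lipid-binding SEC14-family gene 39160 bp away on the same strand, were both called toward 129. Sec14l1 had 884 and 1208 reads from 129, with 270 and 309 from cas. Its log2 ratio of 1.51 (SE 0.13, adjusted p = 1.3e-29 in limma) stands beside 1.61 for Snhg20. With the scaling to the typical gene, this and Gas5 with Zbtb37 were the pairs called in the same direction. With 1 shared library size, Snhg8 with Prss12 (0.60) and Snhg5 with Zfp949 (0.86) were also called toward 129 together. With column totals, Snhg5 (0.30) and Zfp949 (0.63) were called toward 129 as well.

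Snhg1 and Slc3a2, the heavy chain of a heteromeric amino acid transporter, start 106 bp apart on opposite strands, and neither was called (-0.08 and -0.06). With 1 shared size Slc3a2 was called toward 129 (0.27). The other called hosts stood beside genes that were not called with the scaling to the typical gene. Prss12 had 0.27 beside Snhg8, Ralgapb had 0.11 beside Snhg11, and Myo1g had -0.77 (SE 0.46) beside Snhg15. Myo1g rests on only 39 and 29 reads from 129, with 41 and 53 from cas. Zfp949, 25091 bp from Snhg5, was higher from 129 (0.53, adjusted p = 0.016 in limma), with 0.87 in library 1 and 0.19 in library 2. Tcf24 (0.75) and Trnau1ap (-0.33), beside Snhg6 and Snhg12, were not called. These calls moved with the scaling: with 1 shared size Prss12 (0.60), Ralgapb (0.44) and Tcf24 (1.08) were called toward 129, and with column totals Ralgapb (0.22) and Tcf24 (0.86) were. The difference between a host and its neighbour was not tested.

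**Figure D3:**
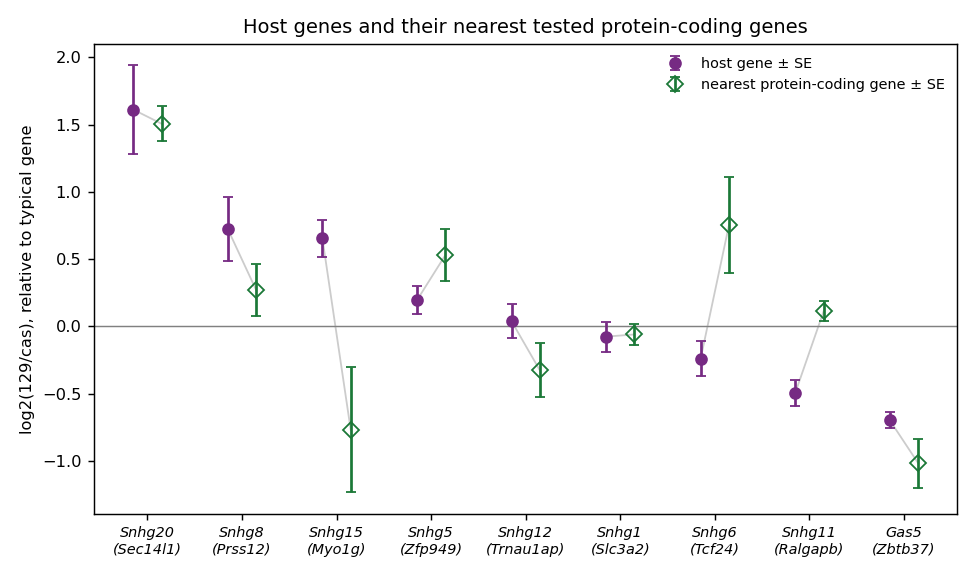
log2(129/cas) with bars of 1 SE for each tested host gene (filled circle) and its nearest tested protein-coding gene (open diamond, name in brackets). Snhg20 with Sec14l1 and Gas5 with Zbtb37 lie on the same side of 0 with both genes called under this scaling, while Snhg15, Snhg12, Snhg6 and Snhg11 lie across 0 from their neighbours.

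The starts of the host genes were searched for TOP-like letters, since that element is known for this family. The motif CTTTT was looked for on the sense strand within 10 bases on each side of the RefSeq start (GRCm38.p6). The motif CTTTC was searched in the same way, and so was TCTTT, and these can overlap one another. Snhg6 was not matched. Of the 9 matched genes, 3 (Gas5, Snhg8 and Snhg12) held one, against 6.18% of 27025 genes in the RefSeq table. Counted by start it was 3 of 10, since Gas5 has 2, against 5.24% of 32851 starts. The same 3 starts had at least 4 pyrimidines in a row from the first base, which 6.86% of all starts had. The stretches below run from 15 bases before to 15 after the start, so that base 16 is the first of the transcript, with the motif in capitals; they are shown for these 3 and for the other called hosts.
Gas5 (chr1:161035151-161035180, plus strand): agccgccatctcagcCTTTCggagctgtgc
Snhg8 (chr3:123508322-123508351, minus strand): gcaccgttcagaagtcTCTTTggctgcgat
Snhg12 (chr4:132308663-132308692, plus strand): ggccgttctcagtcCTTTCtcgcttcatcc
Snhg15 (chr11:6528746-6528775, minus strand): cgctgctgtgaccgtaactttaagcacacg
Snhg20 (chr11:117076768-117076797, plus strand): cttcagttccggccggaagtgcatttgcag
Snhg11 (chr2:158375698-158375727, plus strand): cgcactgcggcactcactcacgcactcagc
Of the 3 genes with the motif, Gas5 was higher from cas, Snhg8 was higher from 129 and Snhg12 was not called. A match is a run of letters in the reference sequence and not evidence of use.

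Other genes of the same pathway gave the setting. Of 11 other noncoding hosts, 6 could be tested and 1 was called, toward 129, where 43.9% of all tested genes were called and 21.9% toward 129. With 1 shared library size 2 were called, both toward 129, where 41.9% of all tested genes were called toward 129. Snhg17 gave 1035 and 1244 reads from 129, while 483 and 686 came from cas (a ratio of 0.65 on the log2 scale, SE 0.11, adjusted p = 2.4e-08 in limma). Snhg14, a long host transcript of the Snrpn-Ube3a region, had 0.16 with an adjusted p of 0.076 in limma. It was called toward 129 with 1 shared size (0.49) and with column totals (0.27). Snhg4 and Snhg9 were listed at 0, Snhg7 had 2 and 7 reads from 129, with 9 and 0 from cas, and Snhg10 and Snhg16 were not matched by symbol. The median of the 6 was -0.27, and 0.06 with 1 shared library size.

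Among 25 tested protein-coding hosts, mostly ribosomal protein and translation factor genes, 7 were called toward 129, 13 toward cas, and 5 lacked a call. The called share of 80.0% is set beside the 43.9% of all tested genes without a test. Rps2, a small-subunit protein, had 1651 and 1400 reads from 129, with 273 and 373 from cas (1.92, SE 0.12). Its ratios in libraries 1 and 2 were 2.29 and 1.54, and the exact intervals of its 129 share did not overlap. The SE comes from the spread shared by genes of like abundance, so it understates this difference. Tpt1, encoding a translationally controlled tumour protein, had 395 and 401 from 129, with 782 and 671 from cas (-1.19, SE 0.13). Nucleolin (Ncl) had -0.26 and Rpl4 -0.40. With 1 shared library size Ncl turned positive, Rpl4 lost its call at -0.07, and the counts were 10 and 7. Of all tested genes, 51.6% were then called, 41.9% toward 129. Ribosomal protein genes have many near-identical processed copies, so their ratios are uncertain.

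None of the tested genes of the snoRNP proteins, of their assembly, of release and trimming or of nonsense-mediated decay was called toward 129 when scaled to the typical gene. Calls toward cas numbered 3 of 7, 4 of 9, 2 of 6 and 3 of 14, against 22.0% of all tested genes. The list of snoRNP proteins shares genes with that of the protein-coding hosts, Dkc1 among them, so the counts of these lists are not separate. This direction turned with the scaling: with 1 shared library size the counts higher from 129 and from cas were 2 and 1, 4 and 0, 3 and 0, and 5 and 1. Under that scaling 41.9% of all tested genes were called toward 129, so the turn is not particular to these lists. Dkc1, the X-linked pseudouridine synthase of H/ACA particles, was higher from cas under each scaling tried (-0.66, SE 0.08; -0.33 with 1 shared size). It had 1812 and 1717 reads from 129, with 2229 and 2196 from cas.

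Nop58, a core protein of C/D particles, had -0.18 and was called toward cas, but with 1 shared size it was called toward 129 (0.15). The calls on Shq1, an H/ACA assembly factor (-0.17 and 0.16), Xrn2, a nuclear exonuclease (-0.17 and 0.16), and Parn, a deadenylase (-0.16 and 0.17), went from cas to 129 in the same way. The assembly factors Naf1 (-0.36) and Rpap3 (-0.40) were also called toward cas, and both lost the call with 1 shared size (-0.03 and -0.08). Smg1, the kinase that phosphorylates the decay factor UPF1, had 4539 and 4940 reads from 129, with 6010 and 6234 from cas. Its ratio of -0.70 (SE 0.06) stayed past the threshold at -0.37 with 1 shared size. Smg6, the endonuclease of the pathway, had -0.36, and with 1 shared size it was not called, at -0.04.

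**Figure D4:**
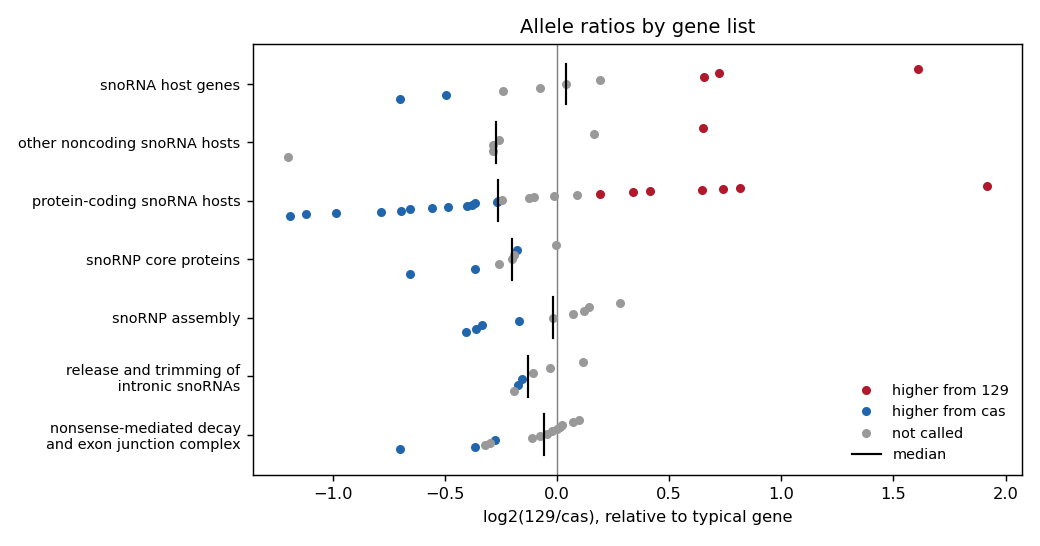
log2(129/cas) of the tested genes of each list, 1 point per gene (red higher from 129, blue higher from cas, grey not called), with the list's median as a black line. The medians of the lists shown lie between -0.27 and 0.04 with this scaling, and all of them turn or stay positive with 1 shared library size. That size puts the median of all tested genes at 0.32.

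The feeder layer can add RNA of its own. Of 12 fibroblast markers, 11 were tested and 9 were higher from 129, against 21.9% of all tested genes, with a median log2 ratio of 4.48. Their summed reads were 9827 and 13338 from 129, with 1444 and 1694 from cas; Postn had 9 reads in all. Cd44, the hyaluronan receptor, had 96.5% ± 0.95 of its reads from 129 (SD, n = 2), Col5a1, a collagen chain, 71.6% ± 1.82, and Bgn, biglycan, 99.8% ± 0.26. The labels do not name the strain of the feeders, and in bulk RNA fewer cells of a type and less RNA per cell cannot be told apart. The part of feeder RNA in the 129 reads of Snhg20, Snhg8 and Snhg15 was not tested.

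Of 10 ES cell markers, 9 were tested, with 1 called toward 129 and 5 toward cas, against 21.9% and 22.0% of all tested genes. With 1 shared library size 3 were called toward 129, against 41.9% of all tested genes, and 0 toward cas. Their summed reads were 49502 and 52102 from 129, with 43515 and 44874 from cas. Esrrb (-0.08) and Tfcp2l1 (0.0019), with the most reads, were not called with the scaling to the typical gene. With 1 shared size both were called toward 129 (0.25 and 0.33), and with column totals Tfcp2l1 was (0.11). In the scaling to the typical gene Dppa5a was higher from 129 (0.79) and Sall4 from cas (-0.47), a call lost with 1 shared size (-0.14). Sox2 was listed at 0, and its row lies within Sox2ot on the same strand.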

How the data were processed

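Nuclear RNA libraries were strand-specific and read as 100 bp pairs, and earlier libraries had been sequenced again and merged, per the labels' protocols. Alignment used Bowtie2 and mm10, per the submitters' processing notes. Not given in the sources used here: which counting program, SNP set and annotation served, and whether strand was used. The deposited values are RPKM, although the headers call them counts. Multiplied by the deposited length and divided by 1 step per column, 100% of nonzero values came out whole (tolerance 0.01 read). GENCODE M21 held 95.6% of the rows under the same name, chromosome and strand. The 1570 Y-linked rows were set aside.

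From the recovered reads, log2(CPM + 0.1) was fitted in limma 3.58.1 (R 4.3.3) with allele as the tested term, library as a block and trended variances, over genes with at least 20 allele reads in each library. Library sizes were adjusted by the trimmed mean of M values. Because prior degrees of freedom were infinite, genes of like abundance share 1 spread. P-values were adjusted by Benjamini-Hochberg over all 15509 genes. Fold changes on this scale understate those of genes with few reads. The alleles are paired because each library's reads, 129 and cas, stem from 1 RNA sample; their deviations from the allele means had a correlation of 0.09 across genes. Intervals of shares are exact Clopper-Pearson. Alternatives were other pseudocounts, filters and scalings, no library block, a 1.5-fold minimum, an exact binomial test and leaving out a library. The code was tested on simulated data. The genes named in the text are the 10 members, their nearest tested protein-coding genes, and in each list the 2 genes with most reads and the called gene of largest ratio in each direction. A gene that this rule names is not reported here. Mcmdc2, Postn, Sox2, Snhg4, Snhg7, Snhg9 and genes without a row were named after their values were seen. Members and lists were chosen with earlier results of these data known.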

Additional observations from a re-analysis of the deposited data

How the results depend on the processing

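Across the alternatives, 4 to 6 of the 9 host genes were called, except that 1 (Snhg20) was called when a change beyond 1.5-fold was required. Of all tested genes, 1982 were called beyond 1.5-fold and 3954 without the replicate block, against 6809; without the block 4 host genes were called, and Snhg8 was the one lost. Among the host genes, only uncalled ratios reversed under the tested alternatives. Snhg1 went to 0.25 with 1 shared library size, 0.027 with column totals and 0.031 in the exact binomial test. Snhg6 went to 0.089 with 1 shared library size. Snhg5 was gained with 1 shared size, column totals and the exact binomial test, Snhg12 with 1 shared size, where Snhg11 was lost. Pseudocounts of 0.5 and 1, no filter and a minimum of 100 reads changed no call on a host gene. Of 81 comparisons of a host gene's ratio with a tested alternative, 67 kept their direction and side of the threshold. Leaving out a library leaves no residual degrees of freedom, so only the ratio is given: it ran from 1.46 to 1.76 for Snhg20 and from -0.74 to -0.66 for Gas5, and it changed sign for Snhg1 (0.04 without library 2) and Snhg12 (-0.01 without library 1). For Snhg20 and Snhg8 the number of reads limits the precision.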
